A study of Mus musculus with 6 samples.

Results

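Mitochondria carry their own ribosome, the mitoribosome, which translates the few messenger RNAs encoded by mitochondrial DNA into core subunits of the respiratory complexes and the ATP synthase. Its ribosomal RNAs come from mitochondrial DNA, but all of its proteins are encoded in the nucleus, made in the cytosol and imported. The large subunit forms peptide bonds and holds the exit tunnel, and the small subunit reads the messenger RNA. Part of each subunit descends from bacterial ribosomal proteins, and part has no bacterial relative.

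The genes described here are the mitochondrial ribosomal protein genes, taken as every row of the deposited RNA-seq table whose symbol starts with Mrpl or Mrps and a digit. There were 77 such genes of 24421 in the table, 48 with an Mrpl symbol, named for the large subunit, and 29 with an Mrps symbol, named for the small subunit. The rule uses symbols and no measured value, although the gene family was picked for description with earlier results of these data known. The cells were of the E14 line of mouse embryonic stem cells and were exposed to paraquat, which produces superoxide by redox cycling, at 10 µM over 15 h. The groups were Pml-/- cells (KO, n = 2 libraries), which carry a disrupted gene for the scaffold protein of PML nuclear bodies, and wild-type cells (WT, n = 2 libraries). Both groups received paraquat and grew with CHIR99021 (inhibits GSK3), PD0325901 (inhibits MEK) and leukemia inhibitory factor. The comparison is therefore between genotypes under treatment and does not show the response to paraquat. Any other difference between the KO and WT cells cannot be told apart from the Pml genotype. The other 2 of the 6 samples were PML-associated chromatin from an APEX-PML knockin and were not analysed here.

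The libraries held 38150397 and 43715807 reads in KO cells and 31384794 and 44130093 reads in WT cells. Pml itself stood at 78.7 and 89.7 CPM (reads per 1000000 reads counted in genes) in the KO libraries and at 238 and 228 CPM in the WT libraries. The 8 stem cell markers summed to 6009 and 6098 CPM in KO cells and 5876 and 5972 CPM in WT cells, against at most 15.7 CPM for 8 fibroblast markers and 10.4 CPM for 7 endoderm markers in any library, with Dcn at 0 in every library. Separate cultures or clones are not mentioned in the labels, so the p-values rest on a spread between samples that may be only technical. The label of WT replicate 2 names only a DNA library kit, while the labels of the other RNA libraries name an RNA kit. In bulk RNA, fewer expressing cells and less RNA per cell cannot be told apart.

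In summed CPM, the mitochondrial ribosomal protein genes were at nearly the same level in KO and WT cells. Their CPM values summed to 4380 and 4477 in the KO libraries and to 4442 and 4390 in the WT libraries. Members with high CPM weigh most in such a sum. The KO mean was 4428 ± 68.8 and the WT mean 4416 ± 37.2 CPM (SD, n = 2 each), a difference of 0.285%, and the libraries of the groups overlapped. The Mrpl genes summed to 2840 and 2899 CPM in KO cells and to 2873 and 2848 CPM in WT cells. The Mrps genes summed to 1540 and 1578 CPM in KO cells and to 1569 and 1542 CPM in WT cells. The ratio of the Mrpl sum to the Mrps sum was 1.84 in both KO libraries, and 1.83 and 1.85 in the WT libraries. The transcripts of the subunits stood in nearly the same proportion in each library.

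**Figure D1:**
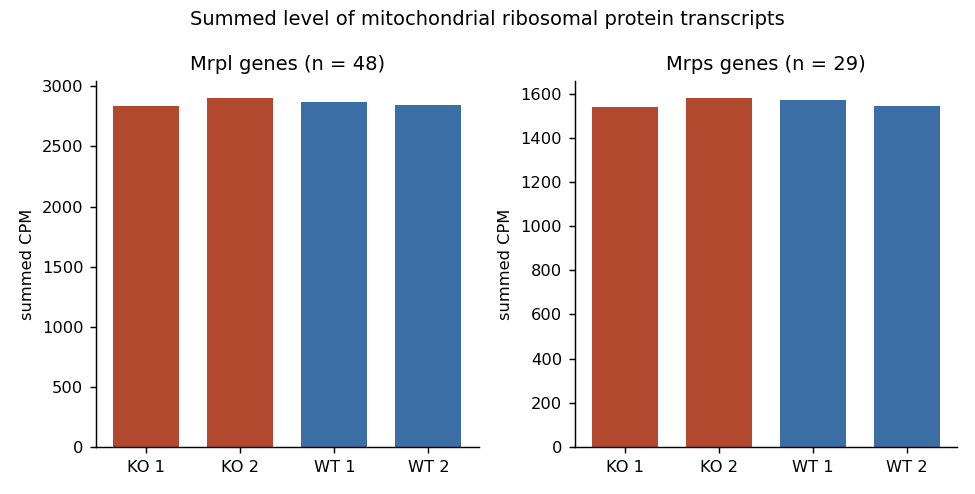
Summed CPM of the 48 Mrpl genes (left) and the 29 Mrps genes (right) in each library, with KO replicates in red and WT replicates in blue; each bar is 1 library. The Mrpl sums lie between 2840 and 2899 CPM and the Mrps sums between 1540 and 1578 CPM, and in both panels the KO and WT libraries interleave.

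Gene by gene, no member passed the test. All 77 were tested with limma on log2(CPM + 1) across all 12710 genes whose mean reached 1 CPM, and 0 had a Benjamini-Hochberg adjusted p under 0.05, whereas 5.41% of all genes tested did (1.95% higher and 3.45% lower in KO). Among the 8013 genes whose mean lay within the members' own range of CPM, 5.59% did. On the recovered reads the count of members was also 0 with edgeR, which called 4.19% of all genes it tested, and with DESeq2, which called 3.61%. At an unadjusted limma p under 0.05 there were 10 members, 4 higher and 6 lower in KO, or 13.0% of the members, against 19.3% of all genes tested and 19.7% of those within the members' CPM range. By subunit these were 7 of 48 Mrpl genes, 3 of them higher and 4 lower, and 3 of 29 Mrps genes, 1 higher and 2 lower. With edgeR 10 members had an unadjusted p under 0.05, and with DESeq2 6 had. The share of all genes at that unadjusted threshold was not counted for edgeR or DESeq2, so these counts have no background.

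The size of the differences was small, and the intervals around them were narrow. Log2 fold changes (KO minus WT) ranged between -0.25 and 0.22 in the Mrpl genes and between -0.18 and 0.16 in the Mrps genes. Their medians were -0.017 and -0.021, beside -0.0029 over all genes tested. The log2 fold change was below 0 in 47 members and above 0 in 30. Over all genes tested, it was below 0 in 6480 and above 0 in 6230. This split was not tested. The 95% interval of the difference, not adjusted for the number of genes, lay within a 1.5-fold change in either direction for 77 of 77 members, and within a 1.25-fold change for 70 of them, or 90.9%. The share within 1.25-fold was 77.5% for the genes within the members' CPM range and 60.8% for all genes tested. The 7 members whose interval reached beyond 1.25-fold were 5 Mrpl and 2 Mrps genes.

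The differences between groups were set beside those between replicates. The median absolute log2 fold change over the members was 0.064, while the median absolute log2 difference between the libraries of a group was 0.054 for KO and 0.049 for WT. A fold change compares means of 2 libraries, which vary less than the single libraries compared between replicates. These medians are therefore unlike measures and do not show that the fold changes were of replicate size. Both KO libraries lay above both WT libraries for 14 of the 77 members, while over all genes tested the share was 23.8%. They lay below both for 27 of the 77 members, while over all genes tested the share was 25.5%. In sum 41 of 77, or 53.2%, did not overlap. The share was 49.3% over all genes tested and 50.1% over those within the members' CPM range. Among the Mrpl genes 10 lay above and 20 below, and among the Mrps genes 4 above and 7 below. By subunit, 62.5% of the 48 Mrpl genes and 37.9% of the 29 Mrps genes did not overlap, on either side of the 49.3% over all genes tested. The difference between the subunits was not tested. Reads were not scarce. Between 270 reads, for Mrps33 in WT library 1, and 8562 reads, for Mrpl45 in KO library 2, stood behind each value, which gives a counting error between 6.09% and 1.08% of the value.

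**Figure D2:**
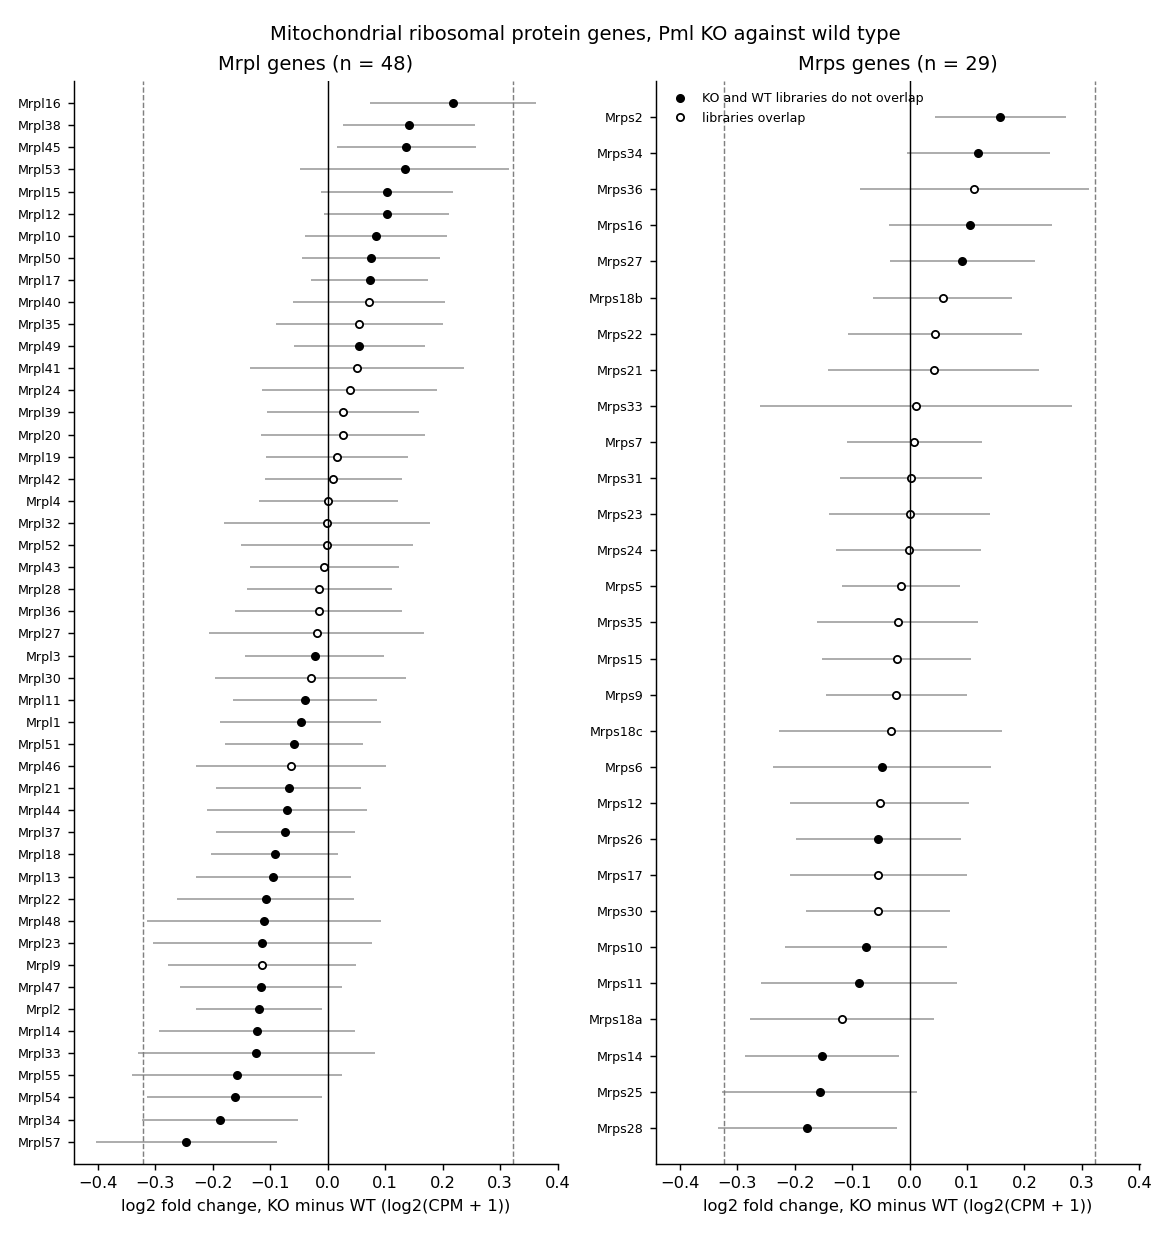
Log2 fold change (KO minus WT, log2(CPM + 1) scale) of each Mrpl gene (left) and Mrps gene (right), with 95% intervals from limma as grey lines; filled points are genes whose KO and WT libraries do not overlap, and dashed lines mark a 1.25-fold change. Fold changes lie on both sides of 0 in both panels, from -0.25 for Mrpl57 to 0.22 for Mrpl16, and 70 of the 77 intervals stay between the dashed lines.

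The member with the largest decrease was Mrpl57, a large-subunit protein with no bacterial relative that was formerly called Mrp63. Its level was 29.6 and 28.0 CPM in KO cells, against 34.2 and 34.5 CPM in WT cells. Both KO libraries were below both WT libraries, and the KO mean was 16.1% lower than the WT mean. The log2 fold change was -0.25 (SE 0.074, 95% interval -0.40 to -0.089), with a limma adjusted p of 0.069. In the authors' deposited table, which comes from edgeR over 24421 genes and gives wild type over knockout, Mrpl57 had a log2 fold change of 0.25 and a false discovery rate of 0.045, and it was the only 1 of the 77 members under 0.05 there, of 927 genes in all. Mrpl57 lies on chromosome 14 from 57826228 to 57829087 (mm10). The start of transcription in its RefSeq promoter window (GRCm38.p6) lies just inside these bounds. The 100 bases before that start are shown because Mrpl57 and Mrpl16 are the members that differed most. These bases hold none of the motifs described further on.
Mrpl57 (chr14:57826139-57826238, plus strand): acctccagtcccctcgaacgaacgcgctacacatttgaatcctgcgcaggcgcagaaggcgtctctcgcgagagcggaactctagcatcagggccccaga

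The member with the largest increase was Mrpl16, a homolog of the bacterial protein that sits near the peptidyl transferase centre. It stood at 42.1 and 41.7 CPM in KO cells and at 35.2 and 36.6 CPM in WT cells. The groups did not overlap, and the KO mean was 16.7% higher, with a log2 fold change of 0.22 (SE 0.068, 95% interval 0.073 to 0.36, limma adjusted p = 0.080). The false discovery rate of Mrpl16 in the authors' deposited table was 0.070. Mrpl16 lies on chromosome 19 from 11770415 to 11774956. The same stretch of its promoter holds none of these motifs either.
Mrpl16 (chr19:11770315-11770414, plus strand): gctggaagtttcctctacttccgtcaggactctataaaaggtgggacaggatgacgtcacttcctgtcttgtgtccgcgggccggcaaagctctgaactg

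Other Mrpl genes at the low end of the order differed less. Mrpl34, a bacterial-type protein of the large subunit, was at 42.0 and 43.1 CPM in KO cells and at 48.7 and 48.6 CPM in WT cells, 12.5% lower (log2 fold change -0.19, limma adjusted p = 0.106). Mrpl54, a mitochondria-specific protein near the base of the stalk that recruits translation factors, was at 32.7 and 32.4 CPM in KO cells and at 37.5 and 35.6 CPM in WT cells. Mrpl55 was at 20.5 and 19.6 CPM in KO cells and at 23.3 and 21.8 CPM in WT cells. All 3 genes had KO libraries below WT libraries, and none passed the adjusted test (highest limma adjusted p = 0.342, for Mrpl55). Mrpl33 and Mrpl14, both with bacterial homologs, came next. Mrpl33 was at 15.1 CPM in both KO libraries and at 17.4 and 15.7 CPM in WT cells. Mrpl14 was at 23.5 and 22.9 CPM in KO cells and at 25.5 and 25.2 CPM in WT cells. Their KO libraries also lay below their WT libraries, with log2 fold changes of -0.12 in each.

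On the higher side, Mrpl38, a protein of the central protuberance, where the large subunit meets the small, was at 86.0 and 85.9 CPM in KO cells and at 76.5 and 79.2 CPM in WT cells. Mrpl45, which lines the end of the exit tunnel and faces the inner membrane, was at 172 and 196 CPM in KO cells and at 167 CPM in both WT libraries. The KO libraries of Mrpl45 differed from each other by more than the lower of them differed from WT. The KO means were 10.4% and 10.2% higher than the WT means for Mrpl38 and Mrpl45 (limma adjusted p = 0.157 and 0.195). Without KO library 1 the log2 fold change of Mrpl45 was 0.23 with a limma adjusted p of 0.0138, and without KO library 2 it was 0.044 with one of 0.743.

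Among the Mrps genes, Mrps2, the homolog of bacterial S2, had the highest fold change. It was at 165 and 182 CPM in KO cells, against 153 and 157 CPM in WT cells. The KO libraries were above the WT libraries and the mean was 11.8% higher (log2 fold change 0.16, 95% interval 0.044 to 0.27, limma adjusted p = 0.105). Without KO library 1 its log2 fold change was 0.23 with a limma adjusted p of 0.0154, and without KO library 2 it was 0.085 with one of 0.477. Mrps34, a protein found only in mitochondrial small subunits, was at 65.0 and 67.3 CPM in KO cells and at 62.0 and 59.7 CPM in WT cells (limma adjusted p = 0.279). Mrps16, the homolog of bacterial S16, was at 47.0 and 48.2 CPM in KO cells and at 45.9 and 42.5 CPM in WT cells. Mrps27, a pentatricopeptide repeat protein, was at 58.9 and 58.1 CPM in KO cells and at 55.3 and 54.3 CPM in WT cells. Both genes had KO libraries above WT libraries, while those of Mrps18b overlapped, at 82.0 and 87.7 CPM in KO cells and 83.0 and 80.0 CPM in WT cells.

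Mrps28 had the lowest fold change of the Mrps genes, at 33.7 and 31.2 CPM in KO cells and 36.3 and 37.3 CPM in WT cells, a mean 11.8% lower (log2 fold change -0.18, 95% interval -0.33 to -0.022, limma adjusted p = 0.193). Mrps14, the homolog of bacterial S14, was at 55.1 and 51.4 CPM in KO cells and at 60.6 and 57.9 CPM in WT cells. Mrps25, a mitochondria-specific protein, was at 41.9 and 35.3 CPM in KO cells and at 43.3 and 42.6 CPM in WT cells. In all 3 genes the KO libraries lay below the WT libraries, and the limma adjusted p was between 0.193 and 0.301. The KO libraries also lay below the WT libraries for Mrps10 and Mrps11, the homologs of bacterial S10 and S11, at higher adjusted p. Mrps10 was at 40.1 and 40.7 CPM in KO cells and 41.8 and 43.5 CPM in WT cells (limma adjusted p = 0.591). Mrps11 was at 23.6 and 24.6 CPM in KO cells and 25.2 and 26.2 CPM in WT cells (limma adjusted p = 0.612).

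**Figure D3:**
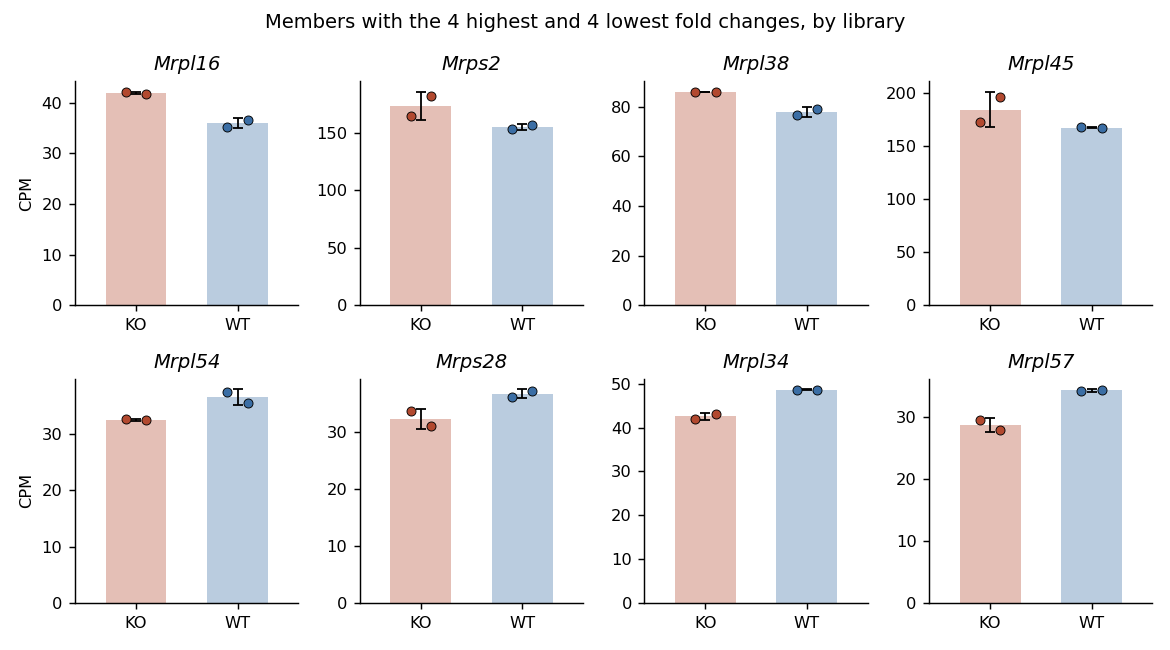
CPM of the members with the 4 highest (top row) and 4 lowest (bottom row) log2 fold changes; points are single libraries, bars are means and error bars SD (n = 2 each), with KO left of WT in each panel. In each of the 8 genes the KO and WT libraries are apart, by amounts that leave the KO mean between 16.7% higher, for Mrpl16, and 16.1% lower, for Mrpl57. The genes were chosen by fold change, which favours libraries that are apart. The libraries are apart in 53.2% of the members and 49.3% of all genes tested.

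Members with the most and the fewest reads also showed no called difference. The 3 Mrpl genes with the highest CPM were Mrpl45, Mrpl15 and Mrpl17. Mrpl15 was at 152 and 167 CPM in KO cells and at 145 and 152 CPM in WT cells, and Mrpl17, near the tunnel exit, at 132 and 135 CPM in KO cells and at 127 CPM in both WT libraries. Mrps5 was at 128 and 131 CPM in KO cells and at 131 and 130 CPM in WT cells, with overlapping libraries and a log2 fold change of -0.014. At the low end, Mrps33 was at 8.73 and 10.5 CPM in KO cells and at 8.60 and 10.5 CPM in WT cells, so that its replicates differed far more than its groups. Mrps6, also among the lowest Mrps genes, was at 17.7 and 18.3 CPM in KO cells and at 18.3 and 19.0 CPM in WT cells. The lowest Mrpl genes beside Mrpl33 were Mrpl48, of the central protuberance, and Mrpl23, of the tunnel exit. Mrpl48 was at 15.2 and 14.2 CPM in KO cells and at 16.0 and 15.9 CPM in WT cells, and Mrpl23 at 17.6 and 17.8 CPM in KO cells and at 19.9 and 18.6 CPM in WT cells. CPM is not scaled by transcript length, so these values do not order the genes by number of transcripts.

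The symbols do not map fully onto the subunits. Mrps30 and Mrps18a are named for the small subunit, but their proteins were located in the large subunit of the mammalian mitoribosome. Mrps30 was at 75.8 and 83.5 CPM in KO cells and at 82.7 and 82.6 CPM in WT cells, and Mrps18a at 37.7 and 40.3 CPM in KO cells and at 45.0 and 39.9 CPM in WT cells, with overlapping libraries in both genes. Mrps36 is known as a part of the oxoglutarate dehydrogenase complex and not of the mitoribosome, and it was at 19.5 and 22.6 CPM in KO cells and at 19.7 and 19.1 CPM in WT cells, with overlapping libraries. Assigned by the location of the protein, 50 large-subunit genes had a median log2 fold change of -0.021 and 26 small-subunit genes one of -0.018.

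The members were also grouped by ancestry and by place in the large subunit. Genes classed as having a bacterial homolog had a median log2 fold change of -0.026 in the large subunit (30 genes) and of -0.028 in the small subunit (16 genes). Genes classed as mitochondria-specific had medians of -0.0039 (20 genes) and 0.0069 (10 genes). Mrps18a and Mrps18b were placed in this class although their names refer to bacterial S18. The 8 tunnel exit genes had a median of -0.022, with 4 above 0 and 4 below. The 6 genes of the central protuberance had a median of -0.041. The 5 genes of the factor-binding stalk and its base were the group with a median farthest from 0, at 0.084. In that group Mrpl12, which recruits translation factors, was at 106 and 105 CPM in KO cells and at 96.6 and 99.8 CPM in WT cells (limma adjusted p = 0.292). Mrpl53 was at 27.2 and 31.6 CPM in KO cells and at 27.1 and 26.1 CPM in WT cells. The group held 3 genes above 0 and 2 below. The 2 below were Mrpl54, given above, and Mrpl11, which helps to bind translation factors, at 60.3 and 58.3 CPM in KO cells and 61.4 and 60.5 CPM in WT cells. The differences between these groups were not tested.

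Genes of the mitoribosome with other names behaved in the same range. Of 6 such genes, 0 had a limma adjusted p under 0.05, against 5.41% of all genes tested, and their median log2 fold change was -0.013. Ptcd3, a pentatricopeptide repeat protein of the small subunit, was at 186 and 196 CPM in KO cells and at 171 and 176 CPM in WT cells, with both KO libraries above both WT libraries (limma adjusted p = 0.133). Dap3, a GTP-binding protein of the small subunit, was at 90.0 and 92.0 CPM in KO cells and at 97.4 and 94.5 CPM in WT cells. Ict1, a peptidyl-tRNA hydrolase built into the large subunit, was at 42.1 and 40.1 CPM in KO cells and at 44.7 and 37.2 CPM in WT cells, with overlapping libraries.

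In the machinery around the mitoribosome, 1 gene fell in each of 2 lists, beside 3.45% of all genes tested that were lower and 1.95% that were higher. Of 27 genes for mitoribosome assembly and ribosomal RNA modification, 1 fell and 0 rose. It was Ddx28, an RNA helicase needed to assemble the large subunit, at 23.8 and 22.7 CPM in KO cells and 29.6 and 27.8 CPM in WT cells (log2 fold change -0.29, SE 0.080, limma adjusted p = 0.0471). Its call ended without KO library 1 (adjusted p = 0.0713), without KO library 2 (0.212), without WT library 1 (0.271), without the 1 CPM filter (0.1005) and with DESeq2 (0.120). Ddx28 lies on chromosome 8, where the median log2 fold change over 680 genes was -0.061, and the part of this in its change was not tested.

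Of 19 genes for translation factors, membrane insertion and tRNA modification, 1 fell and 0 rose. This was Tsfm, elongation factor Ts, which recharges elongation factor Tu, at 42.4 and 38.8 CPM in KO cells and 49.9 and 47.5 CPM in WT cells (log2 fold change -0.26, SE 0.069, limma adjusted p = 0.0435). Its call ended without KO library 2 (adjusted p = 0.251), without WT library 1 (0.225), without the 1 CPM filter (0.0957) and with DESeq2 (0.0953). Tufm, elongation factor Tu itself, was at 105 and 107 CPM in KO cells and at 94.7 and 98.5 CPM in WT cells (limma adjusted p = 0.175). Of 17 mitochondrial aminoacyl-tRNA synthetase genes and 17 genes of mitochondrial DNA and RNA maintenance, 0 passed limma in each list. Over all genes tested 5.41% did. At an unadjusted limma p under 0.05 were 2 (11.8%) and 1 (5.88%), against 19.3% of all genes tested. The medians were -0.015 and -0.019.

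**Figure D4:**
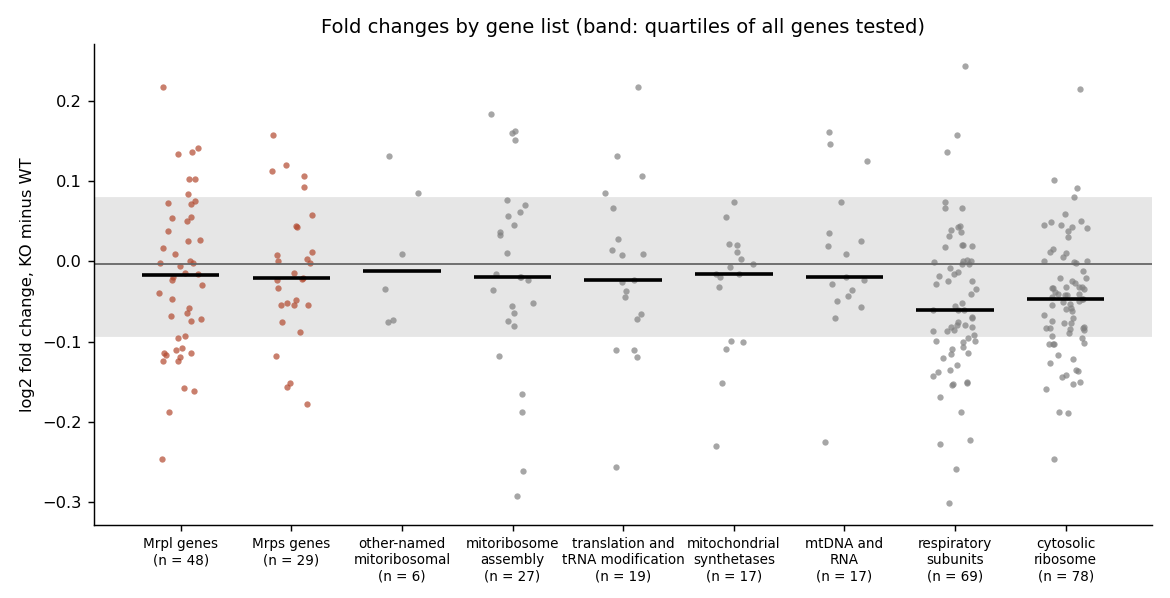
Log2 fold change (KO minus WT) of every tested gene in each list, with 1 point per gene and a black line at the list's median; the grey band runs from the lower to the upper quartile of all 12710 genes tested and the thin line their median. The medians of the Mrpl and Mrps genes, -0.017 and -0.021, lie inside the band near 0, and those of respiratory subunits and cytosolic ribosomal proteins lie lower, at -0.061 and -0.047.

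The nuclear-encoded partners of the subunits made by the mitoribosome, and the proteins of the cytosolic ribosome, were set beside these values. Nuclear-encoded respiratory and ATP synthase subunits gave 1 higher and 1 lower of 69 tested, against 5.41% called over all genes tested, with a median log2 fold change of -0.061. Cox5b, a subunit of cytochrome c oxidase, rose, at 135 and 147 CPM in KO cells and 118 and 119 CPM in WT cells (limma adjusted p = 0.0132, 0.0998 without KO library 2 and 0.0547 without the 1 CPM filter). Ndufb6, a subunit of complex I, fell, at 54.7 and 49.2 CPM in KO cells and 64.2 and 60.3 CPM in WT cells (limma adjusted p = 0.0359, 0.239 without KO library 2, 0.198 without WT library 1, 0.0957 without the 1 CPM filter and 0.0643 with DESeq2). Of 78 tested cytosolic ribosomal protein genes 0 passed limma, with 15 at an unadjusted p under 0.05 (19.2%, against 19.3% of all genes tested), 14 of them lower in KO, and a median of -0.047. The summed CPM was 46690 and 45543 in KO cells and 47848 and 47316 in WT cells for the cytosolic list, and 12026 and 11899 in KO cells and 12184 and 12136 in WT cells for the respiratory list. In both lists the KO libraries were below the WT libraries. The difference between these lists and the mitochondrial ribosomal protein genes was not tested.

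Transcripts of factors known to act on nuclear genes for mitochondria were also measured. Of 10 tested, 0 passed limma, against 5.41% of all genes tested. An unadjusted limma p under 0.05 was found for 2 (20%), against 19.3% of all genes tested. Nrf1, nuclear respiratory factor 1, was at 74.8 and 76.0 CPM in KO cells and at 79.3 and 73.0 CPM in WT cells. Gabpa, the ETS-family subunit of nuclear respiratory factor 2, was at 210 and 218 CPM in KO cells and at 207 and 208 CPM in WT cells. Myc, a general activator of ribosome genes, was at 8.15 and 8.97 CPM in KO cells and at 13.4 and 10.2 CPM in WT cells (log2 fold change -0.41, limma adjusted p = 0.084). Ppargc1a was listed at 0 in all 4 libraries.

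The members are spread over 17 chromosomes, with at most 10 on a single chromosome (chromosome 11) and 0 on X or Y. On 16 of these chromosomes the median log2 fold change of all genes tested lay within 0.02 of 0. The exception was chromosome 8 at -0.061, which holds Mrpl34 and Mrps31. Mrpl34 had a log2 fold change of -0.19, as given above, and Mrps31 one of 0.0024, at 62.6 and 64.1 CPM in KO cells and 64.0 and 62.4 CPM in WT cells.

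Promoter windows from RefSeq (GRCm38.p6), running from 250 bases before to 50 after the start of transcription, were matched for 68 members. They were searched on both strands for exact copies of 4 short motifs known from genes for mitochondrial proteins and for growth. These were cores bound by NRF1 and by YY1, each of 10 letters, the ETS core ACTTCCGG and the E-box CACGTG. Shorter cores of 8 letters, CGCATGCG for NRF1 and AAGATGGC for YY1, lie within the longer ones and were searched as an alternative chosen after the shares of the longer ones had been seen. No motif contains one of another factor.

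The ETS letters were found for 12 of the 68 members (17.6%), against 9.13% of 10101 tested genes with a window and 4.31% of all 27025 genes with one. The longer NRF1 core was found for 3 members (4.41%, against 2.37% and 1.07%) and the longer YY1 core for 5 (7.35%, against 2.44% and 0.995%). With the shorter cores these became 7 members for NRF1 (10.3%, against 4.46% and 2.07%) and 12 for YY1 (17.6%, against 5.36% and 3.19%). The E-box was found for 5 (7.35%, against 12.05% and 8.09%). The windows of members held a median of 21.5 CG pairs, against 20 for tested genes. A start of another gene on the opposite strand, at most 1000 bases upstream, was found for 26 members (38.2%), against 19.5% of tested genes and 12.3% of all genes. These shares describe the windows, and no binding was measured.

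The 100 bases before the start are shown for 5 members that hold the letters close to the start, chosen after the search. The matched letters are in capitals, the shorter NRF1 core in Mrpl9, where the longer one was also found, and the ETS core or its reverse complement in the others, and each sequence runs 5′ to 3′ along the strand of its gene.
Mrps26 (chr2:130563657-130563756, plus strand): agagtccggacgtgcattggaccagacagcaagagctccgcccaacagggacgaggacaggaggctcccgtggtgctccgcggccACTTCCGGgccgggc
Mrpl43 (chr19:45006443-45006542, minus strand): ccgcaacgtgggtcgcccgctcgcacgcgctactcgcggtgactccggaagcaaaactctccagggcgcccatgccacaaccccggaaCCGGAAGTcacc
Mrps22 (chr9:98601680-98601779, minus strand): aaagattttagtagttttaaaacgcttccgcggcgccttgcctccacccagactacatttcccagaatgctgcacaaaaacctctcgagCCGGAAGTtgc
Mrpl3 (chr9:105053168-105053267, plus strand): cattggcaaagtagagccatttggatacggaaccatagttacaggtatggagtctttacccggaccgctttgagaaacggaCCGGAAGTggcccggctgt
Mrpl9 (chr3:94443236-94443335, plus strand): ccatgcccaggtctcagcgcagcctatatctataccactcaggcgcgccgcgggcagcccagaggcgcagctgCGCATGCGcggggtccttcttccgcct

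Counted from the last base before the start as -1, the ETS match begins at -15 in Mrps26, at -12 in Mrpl43, at -11 in Mrps22 and at -19 in Mrpl3, and the NRF1 match of Mrpl9 begins at -27. The log2 fold changes of these genes were small and of either sign. They were -0.055 for Mrps26, -0.0060 for Mrpl43, 0.044 for Mrps22, -0.023 for Mrpl3 and -0.11 for Mrpl9, and none was called by limma.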

How the data were processed

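RNA was measured in 4 libraries, 2 from Pml-/- (KO) and 2 from wild-type (WT) E14 cells. Per the submitters' processing notes the reads were handled with cutadapt, TopHat and edgeR on mm10; versions, annotation, use of strand and handling of multiply matching reads were not given in the sources used here, and reads shared with pseudogenes or overlapping genes are uncertain. The deposited table holds CPM per library and the authors' log2 fold change (wild type over knockout), mean log2 CPM, false discovery rate and p-value, copied here where named. Reads were recovered by dividing the deposited CPM by each library's smallest step, and 100% of the quotients lay within 0.001 of an integer.

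Under R 4.3.3, log2(CPM + 1), a scale that understates the change of low genes, was tested with the trend option of limma 3.58.1 for genes whose mean reached 1 CPM. Genotype was the sole factor, with Benjamini-Hochberg adjustment over all 12710 genes at a threshold of 0.05. The fit was also run on simulated counts. The outcome is not given here, so that run is no measure of how often differences as small as the members' would be called. Alternatives were log2(CPM + 0.5), no such filter (genes with any read), TMM scaling, edgeR 4.0.16 and DESeq2 1.42.0 on the recovered reads, each library left out and the replicate number as a block.

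Members and lists were chosen with earlier results of these data known. Named members were the 6 highest and 6 lowest fold changes and the 3 highest and 3 lowest CPM of each set, and genes whose product lies elsewhere than their name says. From the other lists, up to 4 called genes were named. Genes named beyond this (Mrps22, Mrps26, Mrps31, Mrpl3, Mrpl9, Mrpl11, Mrpl43, Mrpl46, Mrpl47, Ptcd3, Dap3, Ict1, Tufm, Nrf1, Gabpa, Myc, Ppargc1a, Ska3, Ndufb5, Pou5f1 and Dcn) were chosen after their values were seen. After the lists had been fixed, Bri3bp and Lyrm2 were dropped for want of a sure role and Mrp63 as an older name of a member; neither Bri3bp nor Lyrm2 was called. The shorter NRF1 and YY1 cores were added after the data had been seen, because the longer letters could not be printed here. Coordinates came from RefSeq GRCm38.p6, which matched all 77 members. Places of proteins in the mitoribosome are background knowledge.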

Additional observations from a re-analysis of the deposited data

How the results depend on the processing

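The count of called members was 0 under log2(CPM + 0.5), no filter, TMM scaling, edgeR and DESeq2. Leaving out 1 library gave 0 to 1 Mrpl genes and 0 to 1 Mrps genes, the calls being Mrpl45 and Mrps2 without KO library 1. Over all genes the count of 687 became 298 with no filter, and 367 to 869 with a library left out. With a library left out the median log2 fold change ranged from -0.047 to -0.029 for Mrpl genes and from -0.030 to 0.0044 for Mrps genes, and their difference from -0.052 to -0.010. In the main fit the difference (Mrpl minus Mrps) was 0.0033, so its sign changed in each of these fits. The main Mrpl median, -0.017, lay outside the range of these fits. Mrps30 (0.014) and Mrps5 (0.0044) changed sign without KO library 1, as did Mrps33 without KO library 2 (-0.11) and without WT library 1 (-0.12). With a library left out these genes ranged from -0.12 to 0.014, from -0.033 to 0.0044 and from -0.12 to 0.14, in that order. With the 8-letter cores, chosen after seeing the data, the promoters with the NRF1 core became 7 instead of 3, and those with the YY1 core 12 instead of 5, since a shorter core also matches wherever the longer one does.

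The replicate numbers are shared between the groups but nothing in the labels says that they pair the samples. Deviations of same-numbered libraries from their group means correlated at 0.12 over 12710 genes, a single value for both pairs. With the replicate number as a block, 1198 genes were called, with 2 Mrpl genes (Mrpl57, adjusted p = 0.0283, and Mrpl16, 0.0377) and 1 Mrps gene (Mrps2, 0.0378) among them.

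With 2 libraries per group, the number of libraries limits what can be seen: the intervals of the members reached a median of 0.14 on the log2 scale to either side. Of the 6 genes called in other lists, Zfp42 stayed called under each of the 10 alternatives.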

Other observations

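Among the stem cell markers used to check the cells, Zfp42 (Rex1), a naive pluripotency marker, fell, at 695 and 653 CPM in KO cells against 827 and 796 CPM in WT cells (log2 fold change -0.27, limma adjusted p = 0.00251). It lies on chromosome 8, whose genes had a median of -0.061. Tfcp2l1, a naive pluripotency transcription factor, rose, at 1005 and 981 CPM in KO cells against 726 and 903 CPM in WT cells (limma adjusted p = 0.0241, and 0.319 without WT library 1, 0.0546 without KO library 1, 0.0604 without KO library 2, 0.146 without the 1 CPM filter and 0.515 with DESeq2). Pou5f1 was at 1269 and 1215 CPM in KO cells and at 1371 and 1295 CPM in WT cells (adjusted p = 0.228).

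For 24 members the gene that starts on the opposite strand within 1000 bases was itself tested. Of these 24 neighbours 0 passed limma, edgeR or DESeq2 in either direction, against 5.41%, 4.19% and 3.61% of all genes tested. An unadjusted limma p under 0.05 was found for 1 of the 24, against 19.3% of all genes tested. Mrpl57 shares its start region with Ska3, a kinetochore gene, and their log2 fold changes were -0.25 and 0.038. Mrpl47 shares its own with Ndufb5, a complex I subunit gene, at -0.12 and -0.11. Mrpl46 and Mrps11, whose products lie in different subunits, start next to each other and had log2 fold changes of -0.064 and -0.088.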
